A study of Mus musculus with 20 samples.

Results

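Trp53, the gene of the transcription factor p53, and 9 of its known target genes (Cdkn1a, Mdm2, Ccng1, Bbc3, Pmaip1, Sesn1, Sesn2, Perp and Eda2r) were followed in mouse male germ cells with and without Tex15. The members are a fixed list of gene symbols, chosen for their known role, with earlier results of these data known but by no measured value, and they are 10 of the 23854 gene symbols found in the count tables of all 3 ages. RNA was sequenced in bulk from male germ cells collected by flow sorting on green fluorescent protein, from knockout (Tex15-/-) and heterozygous (Tex15+/-) mice of mixed strain background collected at embryonic day 16.5 (e16.5), embryonic day 18.5 (e18.5) or postnatal day 2 (d2). Each genotype had 3 libraries at either embryonic age and 4 at d2, which gave 20 libraries in 6 groups. The heterozygous mice thus carried 1 altered allele of Tex15, and no wild-type mice are among these groups. The labels name neither the transgene behind the fluorescence nor the deleted part of Tex15, and do not say whether a library holds 1 animal or a pool. The series text speaks of biological triplicates, although d2 has 4 libraries per genotype. The p-values stand for the spread among these libraries, which may be partly technical.

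p53 is held at a low level in unstressed cells, mainly because the ubiquitin ligase Mdm2 marks it for destruction, and it accumulates after DNA damage and other stress. It then raises the transcription of genes that stop the cell cycle, repair DNA or start apoptosis, and also that of Mdm2, which closes a feedback loop. Much of its control lies in protein stability and modification, so the mRNA of Trp53 is not a measure of p53 activity. Fetal male germ cells rest from division before birth and divide again after it. Tex15 is known in mice for roles in meiosis and in the silencing of transposons in the male germ line.

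p53 binds DNA as a tetramer on a pair of decamer motifs, and upstream sequences of 4 members are printed to show which of them hold such a decamer near the gene start. They are the 250 bases before the start, from RefSeq on build GRCm38.p6, in lower case with each match to the p53 decamer consensus in capitals. The build is not that of the counts. 
Cdkn1a, chr17:29090729-29090978, plus strand: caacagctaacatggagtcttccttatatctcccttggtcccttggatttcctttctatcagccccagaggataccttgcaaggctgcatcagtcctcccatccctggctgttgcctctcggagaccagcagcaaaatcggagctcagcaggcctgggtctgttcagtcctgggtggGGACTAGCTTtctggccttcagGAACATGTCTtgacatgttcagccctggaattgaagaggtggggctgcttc
Trp53, chr11:69580109-69580358, plus strand: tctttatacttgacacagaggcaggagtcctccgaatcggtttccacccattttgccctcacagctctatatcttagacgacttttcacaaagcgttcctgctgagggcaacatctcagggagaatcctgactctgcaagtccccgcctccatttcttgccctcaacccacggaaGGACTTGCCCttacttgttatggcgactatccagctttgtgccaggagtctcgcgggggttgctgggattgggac
Mdm2, chr10:117710759-117711008, minus strand: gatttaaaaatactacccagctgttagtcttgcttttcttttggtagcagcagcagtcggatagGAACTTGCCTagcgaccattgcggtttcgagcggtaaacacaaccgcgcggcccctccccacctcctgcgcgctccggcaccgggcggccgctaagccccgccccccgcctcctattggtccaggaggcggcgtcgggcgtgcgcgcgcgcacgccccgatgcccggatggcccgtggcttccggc
Ccng1, chr11:40755287-40755536, minus strand: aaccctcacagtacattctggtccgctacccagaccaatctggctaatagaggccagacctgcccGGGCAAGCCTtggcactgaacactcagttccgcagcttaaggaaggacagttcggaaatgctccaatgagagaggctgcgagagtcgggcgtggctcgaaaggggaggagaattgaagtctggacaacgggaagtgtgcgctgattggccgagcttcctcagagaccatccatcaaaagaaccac
The search took both strands of the 250 bases before and the 50 bases after each start. Cdkn1a held 2 decamers within 13 bases of each other, which 20 of 27018 genes with such a window did (0.0740%), while its second listed start held none. Only exact matches counted. In Cdkn1a the 10 bases directly after the second decamer miss the consensus at 1 base and so stay in lower case. Trp53, Mdm2 and Ccng1 held 1 decamer each, as did the second start of Sesn1, and 9.56% of all genes held at least 1. The windows of Bbc3, Sesn2 and Eda2r held none, and Perp and Pmaip1 are named here without a sequence. A match of letters says nothing of binding, and functional p53 sites may lie outside these windows, as they are known to do for Mdm2 in its first intron.

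Libraries held 14.3 to 31.5 M (mega) counts in all, of which 7.78 to 14.2 M fell in genes. Tex15, read first as a check of the labels, measured 3.56 to 5.34 counts-per-million (CPM) in knockout and 1727 to 2102 CPM in heterozygous cells at e16.5. At e18.5 it measured 1.70 to 4.41 CPM in knockout and 1267 to 1770 CPM in heterozygous cells. At d2 the knockout libraries other than replicate 2 measured 2.04, 2.47 and 2.61 CPM, but replicate 2 reached 101.5 CPM, against 612 to 1013 CPM in heterozygous cells. Values without this library are given below for the knockout effect on each member at d2 and for the calls between d2 and e18.5 in knockout cells. The 8 germ cell markers summed to 3714 to 6959 CPM over all groups with none at 0, and markers of other testis and blood cells gave sums of at most 332 CPM per list. In bulk samples fewer cells of a type and less RNA per cell cannot be told apart.

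None of the 10 members passed the test between knockout and heterozygous cells at any age, where at most 2.8% of all genes did. Most members differed between ages in both genotypes, but so did many genes. Between d2 and e18.5, 55.0% of all genes passed in knockout and 51.1% in heterozygous cells. By its group means the level of Trp53 was lowest at e18.5 and highest at d2 in both genotypes. The same order of ages held for Cdkn1a, which encodes the cyclin-dependent kinase inhibitor p21, for Pmaip1, which encodes the BH3-only protein Noxa, and for Eda2r. Perp had another order, with its highest mean at e18.5 and its lowest at e16.5 in both genotypes. Mdm2 moved by at most 1.37-fold between any 2 ages. All 10 members passed the filter on low counts at each age. CPM values are on 1 scaling of the gene counts of all 20 libraries, and are not divided by gene length, so they are compared between samples of a gene and not between genes.

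**Figure D1:**
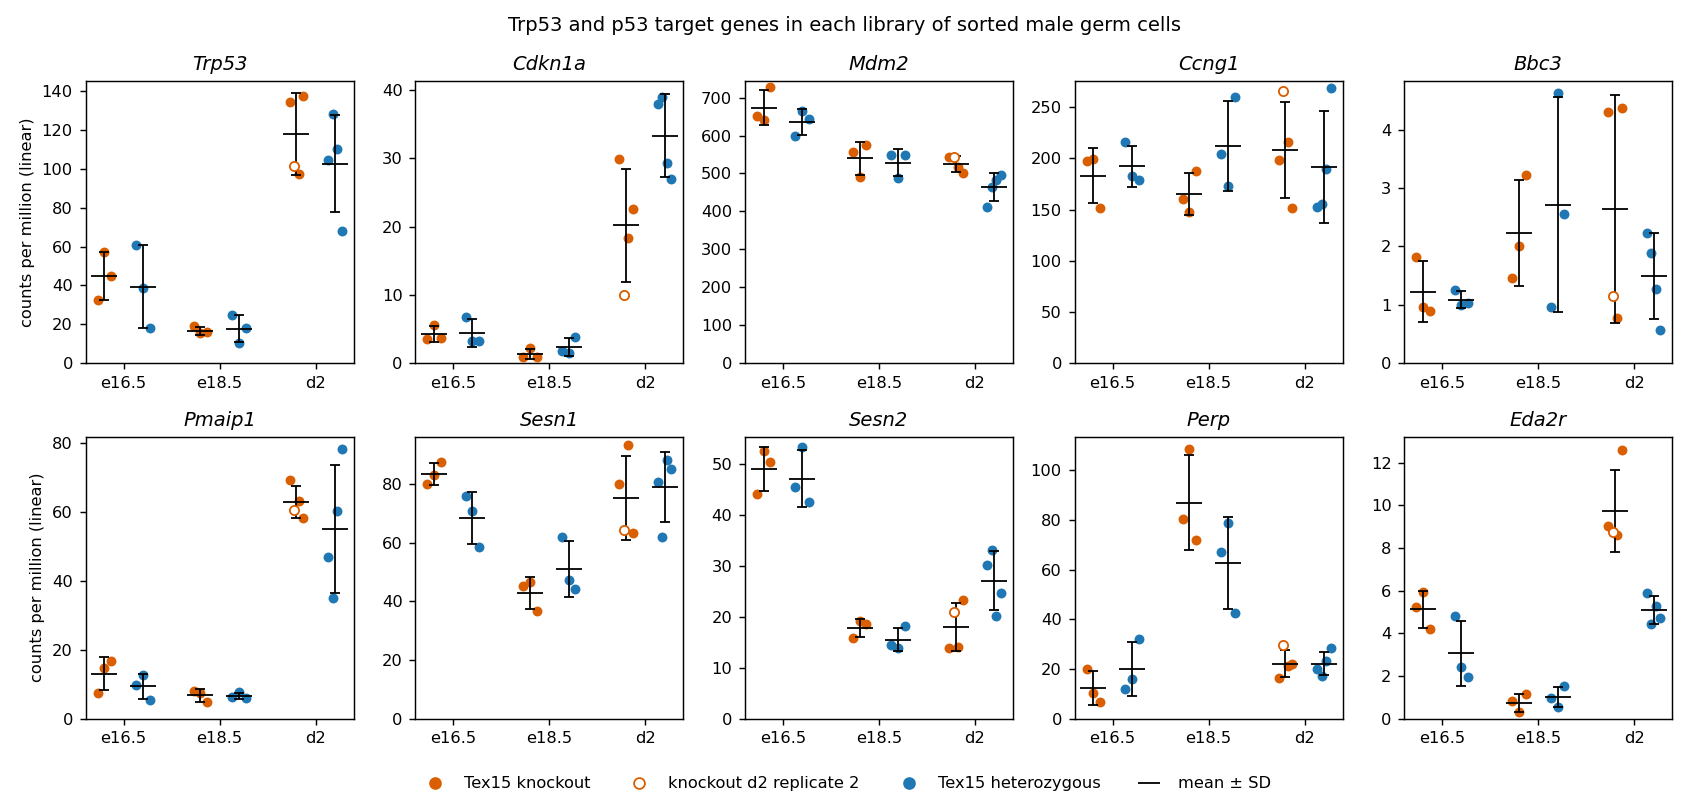
Level of each member in every library, in CPM on a linear axis that starts at 0, for knockout (orange, left) and heterozygous (blue, right) cells at each age. Horizontal lines are means and bars are SD (n = 3 libraries at e16.5 and e18.5, 4 at d2), and the open point is knockout d2 replicate 2. By their means Trp53, Cdkn1a, Pmaip1 and Eda2r stand highest at d2 in both genotypes, and Perp at e18.5.

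The comparison of knockout with heterozygous cells asks what the loss of Tex15 does to p53 and these targets at each age. Of the 10 members, 0 passed at an adjusted p under 0.05 at e16.5, where 0.0061% of the 16384 genes tested did (edgeR, quasi-likelihood test). That share was 1 gene, Tex15 itself (log2 fold change -8.82, adjusted p = 2.1e-10). At e18.5 the count of members was 0 of 10, beside 2.33% of 18075 genes, and at d2 it was 0 of 10, beside 2.8% of 15343 genes. In the same test Tex15 itself did not pass at d2 (log2 fold change -4.97, SE 1.46, adjusted p = 0.167). It did pass without knockout replicate 2 (-8.45, SE 0.22, adjusted p = 3.1e-14). DESeq2 and limma's voom with quality weights also called 0 members at each age. At an unadjusted p under 0.05 stood 0 members and 1266 genes in all at e16.5, 2 members and 2045 genes at e18.5, and 3 members and 2492 genes for d2. The median log2 fold change of the members was 0.10 at e16.5 (all genes -0.01), -0.18 for e18.5 (all genes -0.01) and 0.15 for d2 (all genes -0.02). Without knockout d2 replicate 2 the log2 fold change at d2 was 0.26 for Trp53, 0.16 for Mdm2, -0.03 for Ccng1, 1.07 for Bbc3, 0.20 for Pmaip1, -0.17 for Perp and -0.01 for Sesn1, none of which passed, and those of Cdkn1a, Eda2r and Sesn2 are given with these genes.

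**Figure D2:**
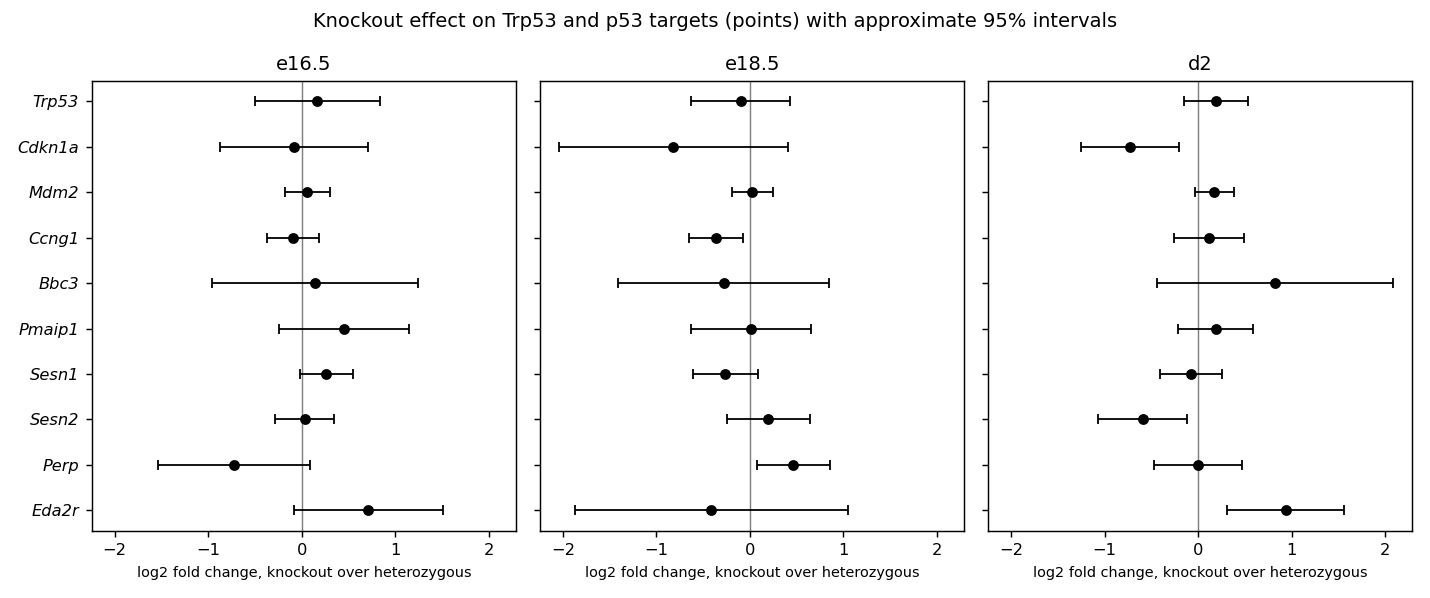
Log2 fold change, knockout over heterozygous, of each member at each age, with approximate 95% intervals (normal, from the standard error). No member passed an adjusted p of 0.05; the bars of Ccng1 and Perp at e18.5 and of Cdkn1a, Sesn2 and Eda2r at d2 do not reach 0.

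Trp53 itself measured 32.3, 57.4 and 44.7 CPM in the knockout libraries of e16.5, against 61.1, 38.7 and 18.2 CPM in the heterozygous ones. At e18.5 it measured 18.9, 15.2 and 15.8 CPM in knockout and 24.7, 10.5 and 18.1 CPM in heterozygous cells, and at d2 134, 102, 97.5 and 137 CPM in knockout and 104, 128, 110.3 and 68.2 CPM in heterozygous cells. The genotypes overlapped at each age, whereas every d2 library stood above every embryonic one. The knockout effect on Trp53, as a log2 fold change, was 0.17 (SE 0.34) at e16.5, -0.10 (SE 0.27) at e18.5 and 0.19 (SE 0.17) at d2. At d2 Trp53 was 7.07-fold above e18.5 in knockout cells (log2 fold change 2.82, SE 0.34, adjusted p = 7.2e-07) and 5.77-fold above it in heterozygous cells (2.53, SE 0.34, adjusted p = 3.2e-06). At e18.5 it was 2.69-fold below e16.5 in knockout cells (adjusted p = 0.00304) and 2.21-fold below it in heterozygous cells (adjusted p = 0.0236). That last call rests on single libraries: it ended without heterozygous e16.5 replicate 1 or 2 and without heterozygous e18.5 replicate 2 or 3, with adjusted p of 0.0684 to 0.228. A processed pseudogene, Trp53-ps, is annotated on chromosome 17 and has no row in the tables, so reads of it may be counted in Trp53 if reads with several matches were kept.

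Mdm2, the ubiquitin ligase that marks p53 for destruction, measured 651, 642 and 728 CPM in knockout and 599, 665 and 643 CPM in heterozygous cells at e16.5. At e18.5 it measured 556, 491 and 574 CPM in knockout and 548, 489 and 549 CPM in heterozygous cells. At d2 the knockout libraries held 543, 542, 516 and 500.2 CPM and the heterozygous ones 411, 464, 483 and 497 CPM. At d2 every knockout library thus lay above every heterozygous one, by a small margin, and the genotypes overlapped at the other ages. That gap did not pass the test (log2 fold change 0.18, SE 0.11, adjusted p = 0.440). Groups that did not overlap were common: the knockout stood wholly above the heterozygous libraries in 5.39% of 15066 genes at d2, where 2 of 10 members did, and the same held for 1 of 10 members at e16.5, beside 7.2% of 16035 genes, and for 0 of 10 at e18.5, beside 9.42% of 17680 genes. With age, Mdm2 was 1.28-fold lower at d2 than at e16.5 in knockout cells (adjusted p = 0.00659) and 1.37-fold lower in heterozygous cells (adjusted p = 0.000839).

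Cdkn1a, which holds cells in arrest by inhibiting cyclin-dependent kinases, measured 3.48, 5.59 and 3.64 CPM in knockout and 6.82, 3.19 and 3.20 CPM in heterozygous cells at e16.5. At e18.5 it measured 0.89, 2.20 and 0.87 CPM in knockout and 1.71, 1.41 and 3.88 CPM in heterozygous cells. At d2 the knockout libraries held 29.9, 9.91, 18.4 and 22.5 CPM, and the heterozygous libraries 38.0, 39.0, 29.3 and 27.0 CPM. Replicate 2, the library with 101.5 CPM of Tex15, was the lowest of the knockout libraries, and only knockout replicate 1 reached into the heterozygous range at d2. The log2 fold change at d2 was -0.73 (SE 0.27, unadjusted p = 0.0130, adjusted p = 0.164), and -0.50 without knockout replicate 2 (SE 0.23, adjusted p = 0.257). Over the alternatives tried for d2 the adjusted p ran from 0.100 to 0.348. At d2 Cdkn1a was 15.4-fold above e18.5 in knockout cells (adjusted p = 6.1e-08) and 14.5-fold above it in heterozygous cells (adjusted p = 6.1e-08), from 78 to 557 counts per library at d2 and 10 to 41 at e18.5. Without knockout d2 replicate 2 the log2 fold change in knockout cells was 4.17, against 3.94 with it. A gene on the opposite strand, whose type is still to be settled, overlaps Cdkn1a in the annotation, and since it is not stated whether strand was used in counting, reads of both cannot be told apart.

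Ccng1, which encodes cyclin G1, a target that acts with a phosphatase on Mdm2, ranged from 148 to 266 CPM in knockout and from 152 to 269 CPM in heterozygous libraries over all ages. Its level passed no test: at e18.5, where the knockout libraries held 160.1, 148 and 188 CPM and the heterozygous ones 204, 173 and 259.8 CPM, the log2 fold change was -0.36 (SE 0.15, unadjusted p = 0.0240, adjusted p = 0.321). The genotypes overlapped at each age. Ccng1 showed no called change between any 2 ages in either genotype, with log2 fold changes between -0.15 and 0.33. One of these, d2 against e18.5 in knockout cells, passed without knockout d2 replicate 4 (adjusted p = 0.0455).

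Pmaip1 and Bbc3 encode Noxa and Puma, BH3-only proteins through which p53 starts apoptosis at the mitochondria. Pmaip1 measured 7.56, 14.8 and 16.7 CPM in knockout and 9.89, 12.6 and 5.48 CPM in heterozygous cells at e16.5, and 8.11, 7.38 and 4.71 CPM in knockout and 6.23, 7.70 and 6.05 CPM in heterozygous cells at e18.5. At d2 it measured 69.4, 60.7, 63.3 and 58.4 CPM in knockout and 47.0, 35.0, 60.3 and 78.3 CPM in heterozygous cells. All 8 libraries of d2 stood above all 12 embryonic ones, and the genotypes overlapped at every age. At d2 Pmaip1 was 9.34-fold above e18.5 in knockout cells (log2 fold change 3.22, SE 0.31, adjusted p = 4.4e-09) and 8.25-fold above it in heterozygous cells (3.04, SE 0.31, adjusted p = 1.4e-08). In knockout cells Pmaip1 was also 1.93-fold lower at e18.5 than at e16.5 (adjusted p = 0.0191), a call that ended without knockout e16.5 replicate 2 or 3 and without knockout e18.5 replicate 3, with adjusted p of 0.0663 to 0.0975. Bbc3 was counted 5 to 59 times per library, and its level ran from 0.78 to 4.37 CPM in knockout and from 0.56 to 4.63 CPM in heterozygous libraries. It passed no test between genotypes or ages, and at this depth its log2 fold change at d2 was 0.83 with an SE of 0.64.

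Perp, a membrane protein of desmosomes that p53 induces in apoptosis, measured 19.98, 10.2 and 6.79 CPM in knockout and 11.9, 15.9 and 32.1 CPM in heterozygous cells at e16.5. At e18.5 it measured 80.3, 108 and 72.0 CPM in knockout and 66.9, 78.8 and 42.4 CPM in heterozygous cells, and at d2 16.2, 29.5, 21.1 and 21.9 CPM in knockout and 19.9, 17.2, 23.3 and 28.3 CPM in heterozygous cells. The e18.5 libraries of both genotypes stood above all libraries of the other ages. Perp was 7.05-fold higher at e18.5 than at e16.5 in knockout cells (log2 fold change 2.82, SE 0.37, adjusted p = 7.3e-06) and 3.14-fold higher in heterozygous cells (1.65, SE 0.35, adjusted p = 0.00246). It was 3.92-fold lower at d2 than at e18.5 in knockout cells (adjusted p = 2.3e-05) and 2.84-fold lower in heterozygous cells (adjusted p = 0.00049). The knockout effect at e18.5 was 0.47 (log2 fold change, SE 0.20, unadjusted p = 0.0317, adjusted p = 0.367). In knockout cells its level at d2 was 1.80-fold above e16.5 at an adjusted p of 0.0479, but this call ended in 15 other settings, among them without knockout d2 replicate 2 (log2 fold change 0.68, adjusted p = 0.127).

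Eda2r, a receptor of the tumour necrosis factor receptor family that binds an ectodysplasin isoform, measured 5.21, 5.94 and 4.20 CPM in knockout and 4.80, 2.42 and 1.96 CPM in heterozygous cells at e16.5. At e18.5 it was near the limit of counting, with 0.81, 0.29 and 1.13 CPM in knockout and 0.96, 0.55 and 1.51 CPM in heterozygous cells, from 3 to 16 counts per library. At d2 the knockout libraries held 9.03, 8.77, 8.59 and 12.6 CPM and the heterozygous ones 5.88, 4.41, 5.30 and 4.73 CPM. The lowest knockout library at d2 lay above the highest heterozygous one, and the genotypes overlapped at both embryonic ages. The log2 fold change at d2 was 0.94 (SE 0.32, unadjusted p = 0.00814), which did not pass after adjustment over all genes (adjusted p = 0.130). Without knockout replicate 2 it was 0.98 (SE 0.34, adjusted p = 0.121), and over all alternatives for d2 the adjusted p ran from 0.0508 to 0.314. At d2 Eda2r was 12.8-fold above e18.5 in knockout cells (adjusted p = 5.5e-07) and 5.05-fold above it in heterozygous cells (adjusted p = 0.00014). At e18.5 it was 6.73-fold below e16.5 in knockout cells (adjusted p = 0.000124) and 3.06-fold below it in heterozygous cells (adjusted p = 0.0192), and the call in heterozygous cells ended without heterozygous e16.5 replicate 1 and without heterozygous e18.5 replicate 1 or 2 (adjusted p of 0.0635 to 0.189).

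The sestrins Sesn1 and Sesn2 are stress-induced inhibitors of the growth-promoting kinase complex mTORC1, and Sesn2 is also a known target of ATF4, the transcription factor of the integrated stress response. Sesn2 measured 44.0, 52.4 and 50.4 CPM in knockout and 45.4, 53.3 and 42.5 CPM in heterozygous cells at e16.5, and 15.7, 19.1 and 18.5 CPM in knockout and 14.5, 13.8 and 18.1 CPM in heterozygous cells at e18.5. At d2 it measured 13.9, 20.8, 14.1 and 23.2 CPM in knockout and 30.2, 33.1, 20.2 and 24.7 CPM in heterozygous cells. Knockout replicates 1 and 3 lay below every heterozygous library at d2, and replicates 2 and 4 lay within the heterozygous range. The log2 fold change at d2 was -0.59 (SE 0.24, unadjusted p = 0.0242, adjusted p = 0.220). With knockout replicate 2 left out it was -0.67 (adjusted p = 0.178). Sesn2 was 2.76-fold lower at e18.5 than at e16.5 in knockout cells (adjusted p = 2.7e-05) and 3.04-fold lower in heterozygous cells (adjusted p = 2.7e-05). At d2 it was 1.75-fold above e18.5 in heterozygous cells (adjusted p = 0.00261), while in knockout cells the log2 fold change was 0.02 (SE 0.21, adjusted p = 0.936). The test of that difference between genotypes, an interaction term, did not pass (difference of log2 fold changes -0.79, SE 0.30, adjusted p = 0.236), nor without knockout d2 replicate 2 (-0.86, adjusted p = 0.165).

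Sesn1 measured 80.0, 83.2 and 87.6 CPM in knockout and 76.1, 70.9 and 58.6 CPM in heterozygous cells at e16.5. Every knockout library there stood above every heterozygous one, with a log2 fold change of 0.26 that did not pass (SE 0.15, adjusted p = 0.666). At e18.5 it ranged from 36.7 to 46.6 CPM in knockout and from 44.3 to 62.0 CPM in heterozygous cells, and at d2 from 63.4 to 93.5 CPM in knockout and from 61.9 to 88.4 CPM in heterozygous cells. At d2 it was 1.76-fold above e18.5 in knockout cells (adjusted p = 0.000285) and 1.54-fold above it in heterozygous cells (adjusted p = 0.00344). At e18.5 Sesn1 was 1.95-fold below e16.5 in knockout cells (adjusted p = 0.000231), and in heterozygous cells the log2 fold change was -0.42 (SE 0.18, adjusted p = 0.107).

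**Figure D3:**
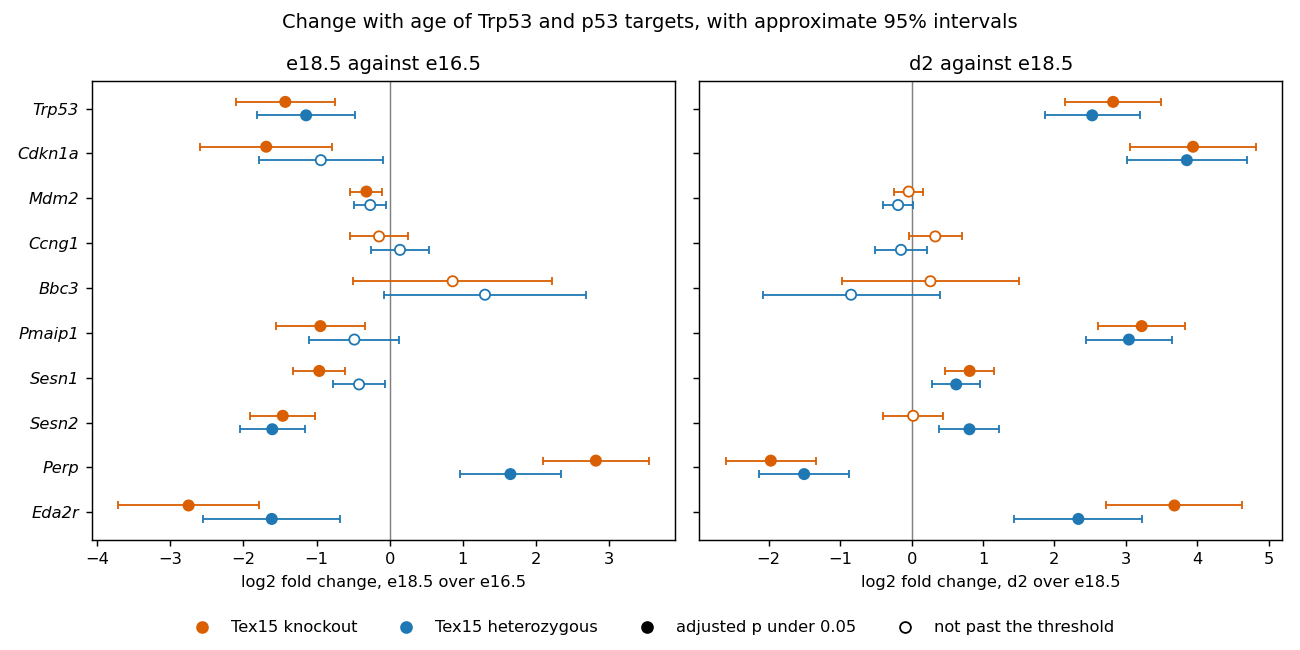
Log2 fold change of each member with age, e18.5 over e16.5 (left) and d2 over e18.5 (right), in knockout (orange, upper of each pair) and heterozygous cells (blue, lower), with approximate 95% intervals (normal, from the standard error). Filled points passed an adjusted p of 0.05. Cdkn1a, Pmaip1, Trp53 and Eda2r lie at 2.34 or above for d2 over e18.5 in both genotypes, while Perp lies under 0.

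The comparisons between ages ask how the levels move from the fetal to the newborn stage. Between e18.5 and e16.5, 8 of 10 members passed in knockout cells (1 higher and 7 lower, beside 35.2% of 18620 genes, 17.5% higher and 17.7% lower) and 4 of 10 in heterozygous cells (1 higher and 3 lower, beside 17.8%, 7.63% higher and 10.2% lower). The member that was higher was Perp in each genotype. Between d2 and e18.5, 6 of 10 passed in knockout cells (5 higher and 1 lower, beside 55.0% of all genes, 25.3% higher and 29.7% lower) and 7 of 10 in heterozygous cells (6 higher and 1 lower, beside 51.1%, 24.1% higher and 27.0% lower). Between d2 and e16.5, 6 of 10 passed in knockout cells (4 higher and 2 lower, beside 42.7%, 20.8% higher and 21.9% lower) and 5 of 10 in heterozygous cells (3 higher and 2 lower, beside 43.1%, 20.5% higher and 22.7% lower). Without knockout d2 replicate 2 the 6 calls in knockout cells for d2 over e18.5 held, with log2 fold changes of 2.89 for Trp53, 4.17 for Cdkn1a, 3.24 for Pmaip1, 3.73 for Eda2r, 0.88 for Sesn1 and -2.13 for Perp. The median log2 fold change of the members for d2 over e18.5 was 0.57 in knockout and 0.72 in heterozygous cells, where that of all genes was -0.11 and -0.08. Called genes were thus common at each step, and nothing particular to the members is read from these counts.

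Each age came as a count table of its own, so a difference between tables and one between ages cannot be told apart. The 3 pairs of ages share their libraries, and their values are not independent of each other. Trp53, Cdkn1a and Pmaip1 were higher at d2 than at both embryonic ages in both genotypes. Eda2r also had its highest mean at d2, but did not pass against e16.5 (adjusted p = 0.0657 in knockout and 0.166 in heterozygous cells). Against e16.5 the d2 level of Cdkn1a was 4.77-fold higher in knockout (5.56-fold without knockout d2 replicate 2) and 7.53-fold higher in heterozygous cells, and that of Pmaip1 was 4.84-fold higher in knockout and 5.90-fold higher in heterozygous cells. Sesn2 was the reverse: at d2 it stood 2.71-fold below e16.5 in knockout cells (adjusted p = 2.7e-06) and 1.74-fold below it in heterozygous cells (adjusted p = 0.00262). Whether the knockout effect differed between ages was tested with interaction terms in the fit of all 20 libraries. Of 10 members, 0 passed for e18.5 minus e16.5 (beside 0.0967% of 18620 genes), 0 for d2 minus e18.5 (beside 0.526%) and 0 for d2 minus e16.5 (beside 0.8%).

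Other p53 targets and the genes that act around p53 were read from 4 further lists in the same fits. Low counts kept some list genes out of the tests. In the knockout comparisons 0 of the 35 other p53 targets tested at e16.5, the 36 at e18.5 and the 34 at d2 passed. The same held for the 20, 21 and 22 genes of the BCL2 family and caspases tested at these ages, and for the 13, 13 and 14 ATF4 stress response genes, where 0.0061%, 2.33% and 2.8% of all genes passed. Of the 23 p53 regulators and DNA damage kinases, all tested at each age, 1 passed: Mdm4, a relative of Mdm2 that binds and inhibits p53, was higher in knockout cells at d2. Mdm4 averaged 606 ± 25.4 CPM in knockout and 440 ± 40.0 CPM in heterozygous cells (SD, n = 4 each), a range of 586 to 641 CPM in knockout and of 404 to 497 CPM in heterozygous libraries, so that the groups did not overlap. Its log2 fold change was 0.46 (SE 0.11, adjusted p = 0.0226). The call ended without heterozygous d2 replicate 1, without knockout d2 replicate 1, 3 or 4, and when the 3 ages shared 1 fit, where the adjusted p ran from 0.0616 to 0.0897. At an unadjusted p under 0.05 at d2 stood 8 of 34 other targets, 7 of 23 regulators, 1 of 22 BCL2 family genes and caspases, and 1 of 14 ATF4 response genes tested, beside 2492 of 15343 genes in all.

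With age the lists moved in both directions. For d2 over e18.5, 15 of 37 other p53 targets rose and 5 fell in knockout cells, and 13 rose and 4 fell in heterozygous cells. Beside them, 25.3% of all genes rose and 29.7% fell in knockout cells, and 24.1% rose and 27.0% fell in heterozygous cells. The list median was 0.31 in knockout cells (all genes -0.11) and 0.00 in heterozygous cells (all genes -0.08). In heterozygous cells Notch1, a receptor of cell-cell signalling (log2 fold change 2.25, adjusted p = 2.8e-09), Btg2, an antiproliferative factor (2.09, adjusted p = 1.2e-07), and Xpc, a DNA damage sensor of nucleotide excision repair (1.26, adjusted p = 9.6e-07), had the smallest p among those that rose. The death receptor gene Fas (-2.98, adjusted p = 8.0e-05) and Ccng2, a relative of Ccng1 (-1.22, adjusted p = 5.5e-05), fell, as did Cd80, a costimulatory ligand of T cells (-1.66, adjusted p = 0.00632), whose call ended without heterozygous e18.5 replicate 3 (adjusted p = 0.0636).

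Of the 23 p53 regulators and DNA damage kinases, 10 rose and 9 fell between d2 and e18.5 in knockout cells, and 6 rose and 9 fell in heterozygous cells, beside 55.0% of all genes called in knockout and 51.1% in heterozygous cells. Atm, the kinase of DNA double-strand breaks (log2 fold change 1.09 in heterozygous cells, adjusted p = 3.5e-05), and Usp7, the deubiquitinase of Mdm2 and p53 (0.98, adjusted p = 8.2e-06), rose, together with the acetyltransferase Kat5 (0.97, adjusted p = 0.00131). Atr, the kinase of replication stress (-0.67, adjusted p = 0.000127), Crebbp, a coactivator (-0.78, adjusted p = 4.5e-07), and the repair factor Trp53bp1 (-0.75, adjusted p = 1.7e-05) fell. Between e18.5 and e16.5 Mdm4 (-1.03, adjusted p = 0.00026) and the kinase Prkdc (-1.24, adjusted p = 2.6e-05) fell in heterozygous cells.

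Of 22 BCL2 family genes and caspases tested, 8 rose and 3 fell for d2 over e18.5 in knockout cells, and 7 rose and 3 fell in heterozygous cells, beside 25.3% of all genes higher and 29.7% lower in knockout cells, and 24.1% higher and 27.0% lower in heterozygous cells. Birc5, which encodes the inhibitor of apoptosis survivin, a protein also needed for cell division, had a log2 fold change of 2.90 in heterozygous cells (adjusted p = 8.5e-07), and Bid, a BH3-only protein, one of 1.39 (adjusted p = 3.5e-06). The survival genes Bcl2 (1.43, adjusted p = 0.00184) and Mcl1 (0.85, adjusted p = 1.7e-05) rose. The survival gene Bcl2l2 fell (-0.82, adjusted p = 0.00262). Hrk and Bak1 fell too, but the call of Hrk ended without heterozygous e18.5 replicate 2 (adjusted p = 0.0714) and that of Bak1 in 4 settings, with adjusted p of up to 0.248. In the ATF4 list 5 of 14 genes rose and 4 fell in knockout cells, and 3 rose and 3 fell in heterozygous cells, beside 55.0% of all genes called in knockout and 51.1% in heterozygous cells. Atf4 itself rose (1.27 in heterozygous cells, adjusted p = 6.1e-06). So did Phgdh (2.18, adjusted p = 6.6e-06) and Psat1 (1.02, adjusted p = 1.4e-05) of the same list. The Atf4 target Asns, asparagine synthetase, fell (-1.60, adjusted p = 6.0e-09), as did Slc7a11 (-1.99, adjusted p = 0.000278) and Vldlr (-1.53, adjusted p = 0.000342).

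**Figure D4:**
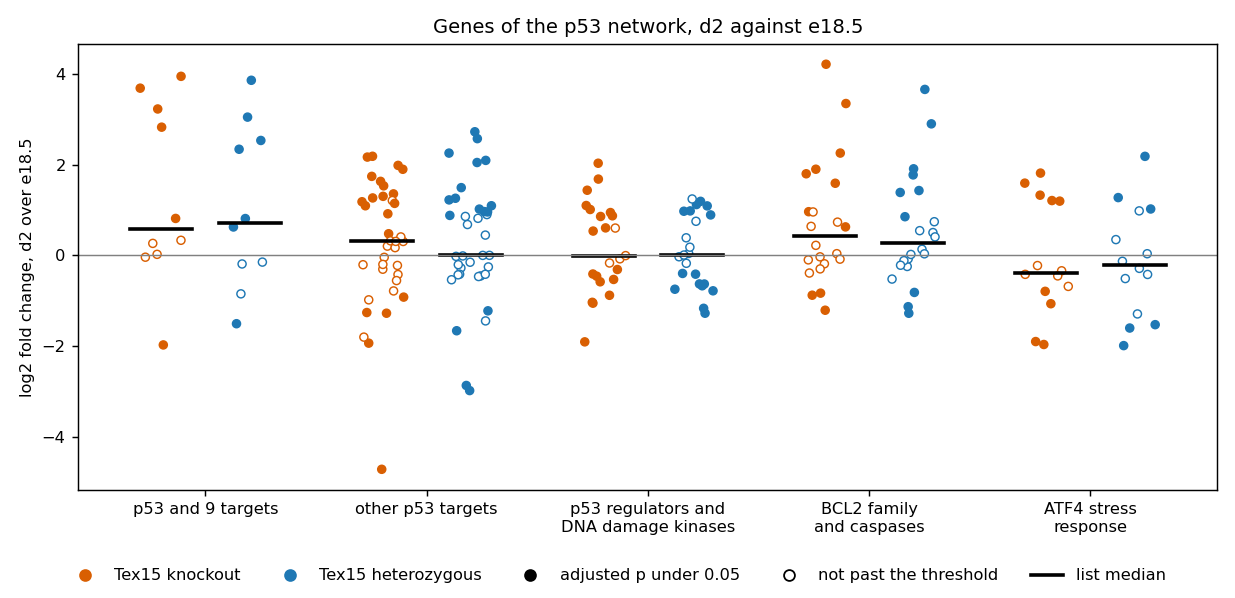
Log2 fold change of d2 over e18.5 of each tested gene of the 5 lists, in knockout (orange, left) and heterozygous cells (blue, right). Filled points passed an adjusted p of 0.05, and black lines are list medians. The lists spread on both sides of 0, and the median of the members is 0.57 in knockout and 0.72 in heterozygous cells.

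Markers of other cells moved with some of these comparisons. At d2 the 7 Sertoli cell markers summed to 34.6 to 47.3 CPM in knockout and 51.9 to 56.0 CPM in heterozygous libraries, and the 8 germ cell markers to 4210 to 5417 CPM in knockout and 3714 to 4183 CPM in heterozygous libraries, neither with a marker at 0. Both sums thus separated the genotypes at d2, while 1 of the 5 Sertoli markers tested passed, lower in the knockout, with a median log2 fold change of 0.01 over the 5, and 1 of the 8 germ cell markers passed, higher in the knockout, with a median of 0.11. In heterozygous cells the Sertoli sum was 23.8 to 33.4 CPM at e16.5, 34.6 to 37.1 CPM at e18.5 and 51.9 to 56.0 CPM at d2. In knockout cells it was 16.6 to 24.0 CPM at e16.5, 32.7 to 39.1 CPM at e18.5 and 34.6 to 47.3 CPM at d2. Between d2 and e18.5 in heterozygous cells 3 of the 7 Sertoli markers rose and 0 fell, with a median log2 fold change of -0.02. The germ cell sum in heterozygous cells was 5424 to 6861 CPM at e16.5, 4544 to 5978 CPM at e18.5 and 3714 to 4183 CPM at d2, and between d2 and e16.5 6 of its 8 markers fell and 1 rose (median log2 fold change -1.45). By their group means the levels of Trp53, Cdkn1a, Pmaip1 and Eda2r were highest at d2 and lowest at e18.5 in both genotypes. The part of Sertoli and other cells in the results was not tested. The 6 macrophage and white blood cell markers summed to 88.4 to 109 CPM in knockout and 29.4 to 41.5 CPM in heterozygous libraries at e18.5, and 2 of the 5 that could be tested passed, both higher in the knockout. At e16.5 stroma markers reached 123 to 151 CPM in knockout and 139 to 287 CPM in heterozygous libraries. Insl3, of the Leydig cell list, and 3 globin genes were at 0 in every group, and C1qa, of the macrophage list, was at 0 in both groups of d2.

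The genes whose profile over the 20 libraries came closest to a member were found by the root mean square (RMS) difference of log2 CPM, each gene centred on its own mean, among 9586 genes whose log2 CPM averaged at least 3. For Trp53 they were Tipin (RMS difference 0.32), Cenpa (0.32) and Mcm5 (0.33), against an SD of 1.20 of Trp53 itself over the libraries. For Cdkn1a they were Fhl3 (0.48), Cttn (0.59) and Rrm2 (0.61), against an SD of 1.73. For Pmaip1 Glis3 was closest (0.29, against an SD of 1.43), for Eda2r Wdr83os (0.49, against an SD of 1.32), for Perp Myh3 (0.37, against an SD of 1.06) and for Sesn2 G6pc3 (0.29, against an SD of 0.69). For Mdm2 Nxf1 was closest (0.12, against an SD of 0.20), and for Sesn1 Dock9 (0.18, against an SD of 0.39). For Ccng1 Mb21d2 was closest (0.20, against an SD of 0.26), and for Bbc3 Chrna4 (0.57, against an SD of 0.77). The 20 libraries share the differences between ages and tables, so the likeness is a description of these libraries.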

How the data were processed

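Counts of reads per gene symbol and library, raw and unscaled, were deposited by the authors as 1 table per age. Per the submitters' processing notes STAR, featureCounts, edgeR and Bowtie were used with build mm9. Versions, the use of strand and the treatment of reads with several matches are not given in the sources used here. Per the labels' protocols RNA was extracted with PicoPure and amplified with NuGEN Ovation kits, an amplification that can add noise to low counts. Rows of 1217 repeat names were set aside, and library sizes are sums over genes. The deposited repeat family tables were not used here.

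Genotypes were compared within each age in edgeR 4.0.16 (R 4.3.3), by glmQLFit with robust estimation and glmQLFTest. Genes were kept by filterByExpr (10 counts, total of 15), scaled by TMM, and p-values were adjusted over all genes tested after Benjamini and Hochberg, with a threshold of 0.05. Ages, interaction terms and CPM levels came from 1 joint fit of the 20 libraries. Each SE was worked back from the test, as the size of the log2 fold change over the square root of the F statistic. Normal intervals from it leave out the limited degrees of freedom and are somewhat too narrow. As alternatives stood DESeq2 1.42.0, limma 3.58.1 (voom, quality weights), median-ratio scaling, unfiltered genes, a minimum of 1 CPM, a replicate block, a joint fit for the genotypes, and each library left out in turn. The scripts were tested on simulated data. Replicates of a group were compared in pairs and none held identical values.

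The members and lists were chosen with earlier results of these data known. Named are all members, Tex15, list genes called in a knockout comparison and, per list and direction, up to 3 with the smallest p in each heterozygous age comparison (examples of these are given), and the 3 genes closest in profile to each member. Of the list genes that the rule names, 1 is not reported here.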

Additional observations from a re-analysis of the deposited data

Results flagged for a closer look

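Among the groups of 4 libraries, which are those of d2, 22 were tested for a library that stands apart from the others (Dixon's ratio of the gap to the range), a test that chance passes in about 1 group of 20. Eda2r in knockout cells at d2 was picked out because replicate 4 held 12.6 CPM, above 8.59 to 9.03 CPM in the other knockout libraries and 4.41 to 5.88 CPM in heterozygous ones. Tex15 in knockout cells at d2 was picked out because replicate 2 held 101.5 CPM, above 2.04 to 2.61 CPM in the other knockout libraries and below 612 to 1013 CPM in heterozygous ones. These were the 2 groups past the limit.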

How the results depend on the processing

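Of 2569 recomputed member values, 2535 kept their direction and side of the threshold or stayed uncalled, 28 calls ended, 6 were gained and 0 turned in direction with a call, while 73 of 1699 uncalled values took another sign. No member was called between genotypes in any setting run. The number of all genes called between genotypes moved more. At e16.5 it was 1 with edgeR, 22 with DESeq2, 2 with no filter, 0 with all ages in 1 fit and 1 to 25 when 1 library was left out (25 without heterozygous replicate 1). At e18.5 it was 422, 152 with all ages in 1 fit and 274 to 502 when 1 library was left out (274 without knockout replicate 2, 281 without heterozygous replicate 2). At d2 it was 430, 768 with DESeq2, 770 with all ages in 1 fit and 187 to 573 when 1 library was left out (187 without knockout replicate 1). For e18.5 over e16.5 in heterozygous cells 3311 genes were called, and 1739 to 4078 when 1 library was left out (1739 without heterozygous e16.5 replicate 1), and 4 members, or 2 to 4 (2 without heterozygous e16.5 replicate 1 or e18.5 replicate 2). The calls gained were those of Cdkn1a in that comparison without heterozygous e18.5 replicate 3, of Mdm2 for d2 over e18.5 in heterozygous cells with DESeq2 and with median-ratio factors, of Eda2r for d2 over e16.5 in heterozygous cells without e16.5 replicate 1 and in knockout cells with DESeq2, and of Ccng1 for d2 over e18.5 in knockout cells. Mdm2 for e18.5 over e16.5 in knockout cells (log2 fold change -0.32, adjusted p = 0.0279) lost its call with median-ratio factors and without knockout e16.5 replicate 3 or e18.5 replicate 2 (adjusted p of 0.0601 to 0.102).

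Deviations of same-numbered libraries of the genotypes from their group means had correlations of -0.19 to 0.10 (0.04 to 0.10 at e18.5). Whether the numbers pair the libraries cannot be settled from 3 or 4 libraries per group. With the replicate number as a block, 1 gene was called for e16.5, 599 for e18.5 and 235 for d2, and 0 members in each. Voom, no filter and all ages in 1 fit were run for the genotype comparisons. Low counts limit Bbc3 throughout and Eda2r and Cdkn1a at e18.5.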
